A study of Mus musculus with 6 samples.

Results

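10 genes of the MHC class I antigen presentation pathway were followed in mouse microglia, namely H2-K1, H2-D1, H2-T23, B2m, Tap1, Tap2, Tapbp, Psmb8, Psmb9 and Psmb10. They were listed by name for their place in the pathway, with earlier results of these data known, and are 10 of the 55335 genes in the table. All 10 were detected in each of the 6 libraries and passed the filter of a mean of at least 1 FPKM (fragments per kilobase of transcript, scaled to 1e+06 mapped fragments). Primary microglia from the brains of neonatal C57BL/6 mice, labelled as genotype WT in both arms, were shaken off mixed glial cultures on day 14 and co-cultured for 24 h with neutrophils. The neutrophils were purified with magnetic beads from injured spinal cords at 3 days after spinal cord injury (dpi), either from Cd177 WT mice or from Cd177 KO (Cd177-/-) mice. Microglia were then recovered by flow sorting. Each arm had 3 libraries, and nothing in the sources used here says whether these were separate cultures, so that p-values measure only the spread between these libraries. Because microglia were WT in both arms, the comparison asks whether loss of Cd177 from the neutrophil changed class I transcripts of the neighbouring microglia.

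MHC class I molecules show peptides from inside the cell to CD8 T cells and natural killer cells. Each consists of a heavy chain (H2-K1 and H2-D1 encode classical chains, H2-T23 the non-classical chain Qa-1) bound to beta-2-microglobulin, the product of B2m. Peptides are cut in the cytosol by the proteasome, carried into the endoplasmic reticulum by the transporter TAP (Tap1 and Tap2) and loaded with the help of tapasin (Tapbp). In immune cells and under interferon gamma, the catalytic subunits Psmb5, Psmb6 and Psmb7 of the constitutive proteasome are replaced in newly built particles by Psmb8, Psmb9 and Psmb10, which makes the immunoproteasome. Microglia carry little class I at rest and raise it during inflammation.

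On mouse chromosome 17 (GRCm38, GENCODE M21) lie 8 of the members, within or beside the MHC. From one end these are Tapbp (33915899 to 33929292), H2-K1 (33996017 to 34000347), Psmb9 (34181987 to 34187764), Tap1 (34187553 to 34197225), Psmb8 (34197721 to 34201454), Tap2 (34203527 to 34216321), H2-D1 (35262730 to 35267499) and H2-T23 (36029773 to 36032855). B2m lies on chromosome 2 (122147686 to 122153083) and Psmb10 on chromosome 8 (105935735 to 105938444).

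RefSeq promoter windows, which run from 250 bases before to 50 bases after a transcript start on GRCm38.p6, were matched for 9 of the 10 members. For each gene, the single start nearest the annotated beginning of the gene was taken. Other starts were not searched, and whether the start taken was the one used in these cells is not known. The windows of 4 genes of the class I molecule itself are shown first, since their products form the complex and H2-K1 and H2-D1 share a long run of letters. They are H2-K1 (chr17:34000298-34000597, minus strand), H2-D1 (chr17:35262844-35263143, plus strand), H2-T23 (chr17:36032652-36032951, minus strand) and B2m (chr2:122147437-122147736, plus strand). Capitals mark matches, on either strand, to the motifs named after them.
H2-K1: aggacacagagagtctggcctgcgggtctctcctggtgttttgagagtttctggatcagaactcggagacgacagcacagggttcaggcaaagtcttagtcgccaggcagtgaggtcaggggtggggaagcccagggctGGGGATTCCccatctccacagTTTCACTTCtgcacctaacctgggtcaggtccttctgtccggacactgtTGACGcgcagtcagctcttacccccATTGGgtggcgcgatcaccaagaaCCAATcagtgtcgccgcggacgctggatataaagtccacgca
H2-D1: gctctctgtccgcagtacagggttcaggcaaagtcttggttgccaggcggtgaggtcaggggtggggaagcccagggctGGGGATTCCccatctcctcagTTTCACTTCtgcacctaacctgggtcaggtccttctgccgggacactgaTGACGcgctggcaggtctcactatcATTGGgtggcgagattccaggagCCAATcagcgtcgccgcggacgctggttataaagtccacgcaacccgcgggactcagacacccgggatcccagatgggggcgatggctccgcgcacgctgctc
H2-T23: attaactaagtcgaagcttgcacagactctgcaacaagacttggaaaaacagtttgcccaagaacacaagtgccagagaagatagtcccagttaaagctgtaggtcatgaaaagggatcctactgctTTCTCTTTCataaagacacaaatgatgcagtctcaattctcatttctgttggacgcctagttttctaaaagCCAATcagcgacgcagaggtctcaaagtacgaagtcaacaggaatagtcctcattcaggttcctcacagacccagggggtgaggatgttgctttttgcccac
B2m: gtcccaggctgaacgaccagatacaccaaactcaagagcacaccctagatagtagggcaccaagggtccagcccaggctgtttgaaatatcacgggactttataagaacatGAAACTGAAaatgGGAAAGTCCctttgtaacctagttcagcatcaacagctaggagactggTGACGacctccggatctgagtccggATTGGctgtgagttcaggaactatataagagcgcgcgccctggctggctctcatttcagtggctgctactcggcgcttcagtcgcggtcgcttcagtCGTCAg

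The motifs searched were the interferon response element core GAAANNGAA, the same core read from its other end, GAANNGAAA (added after the sequences had been seen), the gamma-activated site TTCNNNGAA, the kappaB core GGNNNTTCC, the CCAAT box CCAAT and the X2 box core TGACG. No match overlapped a match of another motif. H2-K1 and H2-D1 shared an unbroken run of 47 bases that holds the kappaB match, and their matches came in the same order along the window. A kappaB match was found for 3 of the 9 members (H2-K1, H2-D1 and B2m), against 18.5% of 32851 promoters of the same length. The interferon response element core was found for H2-T23 and B2m (8.56% of all promoters) and its other end for H2-K1 and H2-D1 (7.52%), which leaves 5 members with neither. The X2 box core was present in 5 members, H2-K1, H2-D1, B2m, Tap1 and Psmb9 (20.8% of all promoters). The CCAAT box was present in 7, all but Psmb8 and Psmb10 (37.4%), and the gamma-activated site in Psmb8 alone (8.30%).

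A further pair of windows is shown because these contrast in content: that of Tap1 (chr17:34187306-34187605, plus strand), and that of Psmb10 (chr8:105938343-105938642, minus strand), in which none of the motifs was found. For Psmb10 this holds only for the window searched. Tap1 and Psmb9 are read in opposite directions from 1 shared region, and 275 bases of their windows are the same on opposite strands.
Tap1: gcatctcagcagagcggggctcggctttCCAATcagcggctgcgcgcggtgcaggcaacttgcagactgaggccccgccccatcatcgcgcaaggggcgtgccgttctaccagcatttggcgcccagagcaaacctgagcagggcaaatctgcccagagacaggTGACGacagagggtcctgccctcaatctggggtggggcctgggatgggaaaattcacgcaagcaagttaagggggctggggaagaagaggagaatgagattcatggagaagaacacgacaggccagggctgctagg
Psmb10: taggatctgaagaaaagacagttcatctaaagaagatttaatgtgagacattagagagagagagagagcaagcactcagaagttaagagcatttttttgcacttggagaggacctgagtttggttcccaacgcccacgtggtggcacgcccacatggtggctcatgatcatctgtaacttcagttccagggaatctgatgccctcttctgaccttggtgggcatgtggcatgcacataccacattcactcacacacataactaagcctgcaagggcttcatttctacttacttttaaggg

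**Figure D1:**
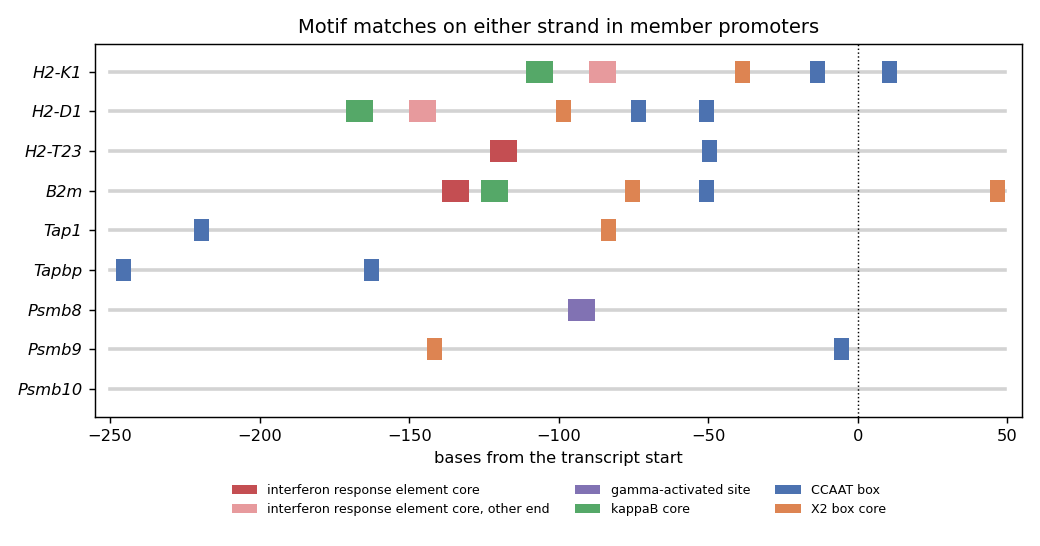
Motif matches on either strand in the promoter windows of 9 members, by distance in bases from the RefSeq transcript start (dotted line). Each coloured block is a match, and the line of Psmb10 holds none. Distances depend on the start taken: the kappaB match in the run shared by H2-K1 and H2-D1 begins at -111 in H2-K1 and at -171 in H2-D1.

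In the data, transcripts of the class I molecule, of Tap1, of Tapbp and of Psmb8 were lower in microglia kept with Cd177 KO neutrophils, Psmb10 was higher, and Tap2 and Psmb9 did not pass the test. By limma with Benjamini-Hochberg adjustment over 11395 genes, 7 of the 10 members were lower at an adjusted p under 0.05, while 18.8% of all genes tested were lower. 1 member was higher, while 24.5% of all genes were. The median log2 change of the 10 members was -0.45, and that of all genes tested was 0.02. Each value is on the log2(FPKM + 1) scale and is KO minus WT, a scale that understates the change of genes with low FPKM. On the log2(FPKM + 1) scale no member passed the more than 2-fold threshold with unadjusted p under 0.05 that the study applied, which 2.57% of genes passed. On the TPM scale, which brings each library to the same sum, H2-T23 passed it with a log2 change of -1.02. As a ratio of mean FPKM, with no pseudocount, the fall of Tap1 (-50.2%) was also past 2-fold. In 8 members every KO library lay under every WT library (24.6% of all genes), in Psmb10 every KO library lay above (31.3% of all genes), and the arms of Tap2 overlapped. Exact two-sided permutation p was 0.1 for each of these 9 members, the smallest that 3 libraries against 3 can give.

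**Figure D2:**
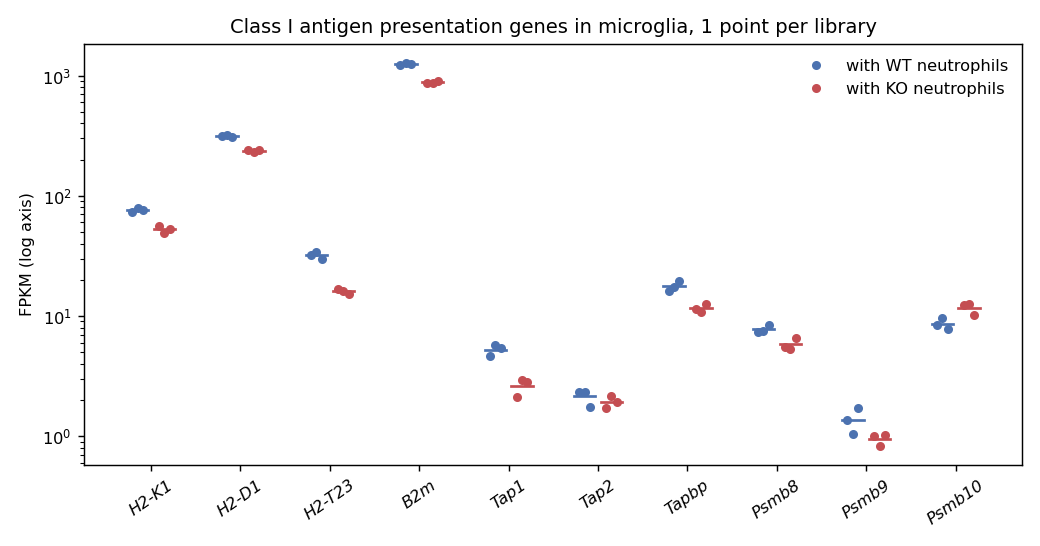
FPKM (log axis) of the 10 members in the 6 libraries. Points are libraries, with WT neutrophils in blue and KO neutrophils in red, and bars are arm means. The points of 8 members lie lower with KO neutrophils, those of Psmb10 lie higher, and those of Tap2 overlap.

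Among heavy chains, H2-D1 had the most transcript per length. H2-D1 had 314.7, 322.0 and 306.3 FPKM in the WT arm against 239.4, 231.8 and 239.9 FPKM in the KO arm. The arms were far apart beside the spread within them, and the mean fell from 314.3 ± 7.82 to 237.0 ± 4.52 FPKM (SD, n = 3 each). The log2 change was -0.41 (SE 0.025, 95% interval -0.47 to -0.34, limma adjusted p = 5.50e-05).

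H2-K1, the other classical chain, had 72.9, 79.2 and 75.7 FPKM in the WT arm against 56.1, 48.9 and 53.0 FPKM in the KO arm. Its mean was 75.9 ± 3.13 and 52.7 ± 3.62 FPKM (SD, n = 3 each), and the log2 change was -0.52 (SE 0.056, 95% interval -0.66 to -0.39, limma adjusted p = 0.000590). The intervals of both classical chains overlap.

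The non-classical chain H2-T23, a ligand of the inhibitory receptor NKG2A on natural killer cells, had the largest fall of the 10 members on the log2(FPKM + 1) scale, although the interval of Tap1 overlaps with its own. It had 32.1, 33.9 and 29.8 FPKM in the WT arm against 16.9, 16.1 and 15.2 FPKM in the KO arm. The mean of 31.9 ± 2.03 FPKM was followed by 16.1 ± 0.871 FPKM (SD, n = 3 each), a change of -49.6%. On the log2 scale this was -0.95 (SE 0.058, 95% interval -1.09 to -0.81, limma adjusted p = 5.24e-05). Of its windows of 75 bases, 13.1% were shared with transcripts of other genes (6.9% for H2-D1 and 1.6% for H2-K1), so that a part of these reads cannot be assigned with certainty.

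B2m, the light chain common to all these molecules, ranked by mean FPKM at percentile 99.7 among all genes tested. It had 1238, 1273 and 1247 FPKM in the WT arm against 876, 877 and 905 FPKM in the KO arm. Its libraries differed little within an arm, with 1253 ± 17.9 and 886 ± 16.2 FPKM (SD, n = 3 each). The log2 change was -0.50 (SE 0.020, 95% interval -0.55 to -0.45, limma adjusted p = 7.78e-06), the smallest SE of the members.

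The heavy chain transcripts were then set against B2m and against each other within each library. These ratios were taken on FPKM + 1, so that the scale of a library cancels in part, and less so for genes with low FPKM. These 10 pairs of members were chosen after the values had been seen, and p-values were adjusted over them. The log2 ratio of H2-T23 to B2m was -5.25 ± 0.0774 with WT and -5.70 ± 0.0983 with KO neutrophils (SD, n = 3 each), a difference of -0.45 (exact permutation test, two-sided p = 0.1, adjusted 0.143). Against H2-K1 the difference of H2-T23 was -0.43 and against H2-D1 it was -0.54, with the same p-values and no overlap between arms. The ratio of H2-K1 to B2m differed by -0.02 (exact permutation p = 0.8) and overlapped. That of H2-D1 to B2m differed by 0.09 without overlap (exact permutation p = 0.1, adjusted 0.143), H2-D1 having kept a little more. Summed over the 3 heavy chains, B2m had 2.97 ± 0.0524 times their FPKM with WT and 2.90 ± 0.0823 times with KO neutrophils (SD, n = 3 each; exact permutation p = 0.5).

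For the transporter, the genes of the 2 TAP chains differed in their values. Tap1 had 4.64, 5.68 and 5.37 FPKM in the WT arm against 2.10, 2.91 and 2.81 FPKM in the KO arm. Its mean was 5.23 ± 0.535 and 2.61 ± 0.442 FPKM (SD, n = 3 each), a change of -50.2%, and its log2 change was -0.79 (SE 0.111, 95% interval -1.06 to -0.52, limma adjusted p = 0.00190). Tap2, its partner in the transporter, had 2.33, 2.32 and 1.76 FPKM in the WT arm against 1.73, 2.16 and 1.91 FPKM in the KO arm. Its arms overlapped, and its log2 change of -0.09 (SE 0.101, 95% interval -0.34 to 0.15, limma adjusted p = 0.492) did not pass the test. That change was -0.04 without KO replicate 1, -0.05 without WT replicate 1 or WT replicate 2, -0.15 without KO replicate 2, -0.18 without WT replicate 3 and -0.16 on the TPM scale, and passed the test in none of these. The log2 ratio of Tap1 to Tap2 was 0.99 ± 0.224 with WT and 0.29 ± 0.104 with KO neutrophils (SD, n = 3 each). This difference of -0.70, among the 10 pairs chosen after seeing the values, had an exact two-sided permutation p of 0.1, adjusted 0.143.

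Tapbp, whose product tapasin bridges TAP and the empty class I molecule, had 16.2, 17.4 and 19.7 FPKM in the WT arm against 11.5, 10.7 and 12.5 FPKM in the KO arm. All KO values lay under all WT values. The mean was 17.8 ± 1.78 and 11.6 ± 0.912 FPKM (SD, n = 3 each), and the log2 change -0.58 (SE 0.083, 95% interval -0.78 to -0.37, limma adjusted p = 0.00219). Of its exon bases, 24.9% overlap the antisense gene Gm19412 and 4.1% the gene Zbtb22, and whether counting used strand is not given in the sources used here.

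The immunoproteasome subunits did not move together. Psmb8 had 7.40, 7.45 and 8.44 FPKM in the WT arm against 5.54, 5.29 and 6.55 FPKM in the KO arm, with no overlap. Its mean was 7.76 ± 0.589 and 5.79 ± 0.666 FPKM (SD, n = 3 each), and its log2 change -0.37 (SE 0.085, 95% interval -0.58 to -0.17, limma adjusted p = 0.0141). An antisense gene, Gm20496, covers 14.7% of its exon bases.

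Psmb9 was the least abundant member, with 1.36, 1.04 and 1.70 FPKM in the WT arm against 1.01, 0.834 and 1.01 FPKM in the KO arm. Its arms were separated only narrowly, by WT replicate 2 at 1.036 FPKM and the highest KO library at 1.011 FPKM. The log2 change was -0.27 (SE 0.116, 95% interval -0.55 to 0.01, limma adjusted p = 0.109), and without WT replicate 2 it was -0.37 with an adjusted p of 0.0346 by limma. It was -0.17 without WT replicate 3, -0.46 with a pseudocount of 0.1 and -0.43 on the TPM scale, with adjusted p of 0.255, 0.112 and 0.0863 by limma. At the estimated depth its values rest on few fragments, 7 to 12 a library if its shortest coding transcript was the expressed one and 21 to 37 if its longest was. It also shares 212 exon bases with Tap1 on the opposite strand, 5.8% of its own.

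Psmb10, the only immunoproteasome subunit of the 3 that lies outside the MHC, was higher with KO neutrophils. It had 8.37, 9.66 and 7.78 FPKM in the WT arm against 12.4, 12.5 and 10.2 FPKM in the KO arm. Its mean was 8.60 ± 0.962 and 11.7 ± 1.26 FPKM (SD, n = 3 each), a change of 35.8%, and its log2 change 0.40 (SE 0.099, 95% interval 0.16 to 0.64, limma adjusted p = 0.0190). This call was close to the threshold. By limma the log2 change was 0.39 (adjusted p = 0.0564) without WT replicate 1, 0.34 (adjusted p = 0.0556) without WT replicate 3, 0.36 (adjusted p = 0.0606) without KO replicate 1 and 0.36 (adjusted p = 0.0614) without KO replicate 2. It was 0.40 (adjusted p = 0.0512) with no filter on low values, and over all alternatives the adjusted p ranged from 0.00811 to 0.0614.

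**Figure D3:**
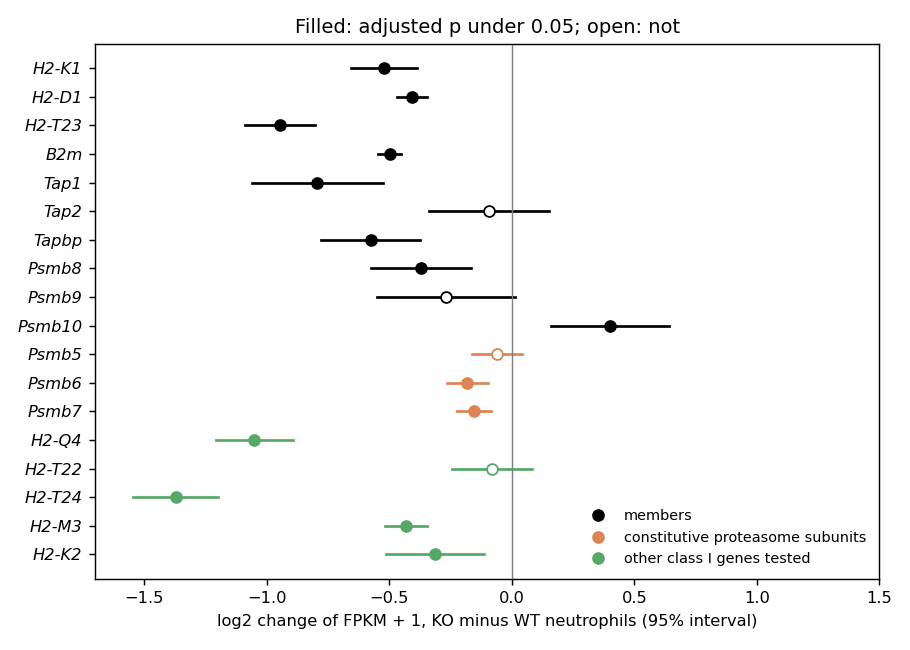
Change of log2(FPKM + 1), KO minus WT neutrophils, with 95% intervals from limma, for the 10 members (black), the constitutive catalytic subunits (orange) and the other class I genes tested (green). Filled points had an adjusted p under 0.05. H2-T23, at -0.95, has the largest fitted fall of the members, and Psmb10, at 0.40, is the only member above 0.

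Constitutive catalytic subunits were far more abundant than the immunoproteasome subunits in both arms. Psmb5 had 156.6 FPKM on average with WT and 150.1 with KO neutrophils and did not pass the test (log2 change -0.06, 95% interval -0.16 to 0.04). Psmb6 (log2 change -0.18, limma adjusted p = 0.00685) and Psmb7 (log2 change -0.15, limma adjusted p = 0.00681) were lower with KO neutrophils. In mean FPKM, Psmb5 was 20.2-fold above Psmb8 with WT and 25.9-fold with KO neutrophils, Psmb6 was 89.7-fold and 113-fold above Psmb9, and Psmb7 was 7.86-fold and 5.19-fold above Psmb10.

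Each immunoproteasome subunit was next set against the subunit it replaces, within each library. The log2 ratio of Psmb8 to Psmb5 was -4.17 ± 0.128 with WT and -4.48 ± 0.0744 with KO neutrophils (SD, n = 3 each), a difference of -0.31. That of Psmb10 to Psmb7 moved the other way, from -2.84 ± 0.106 to -2.29 ± 0.151 (SD, n = 3 each), a difference of 0.55. In both pairs the arms did not overlap, with p = 0.1 by the exact two-sided permutation test, adjusted over 3 pairs 0.15. The ratio of Psmb9 to Psmb6 differed by -0.09 and overlapped (exact permutation p = 0.6). Without WT replicate 3 that difference was 0.0137, without WT replicate 2 it was -0.21, and with a pseudocount of 0.1 it was -0.28.

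**Figure D4:**
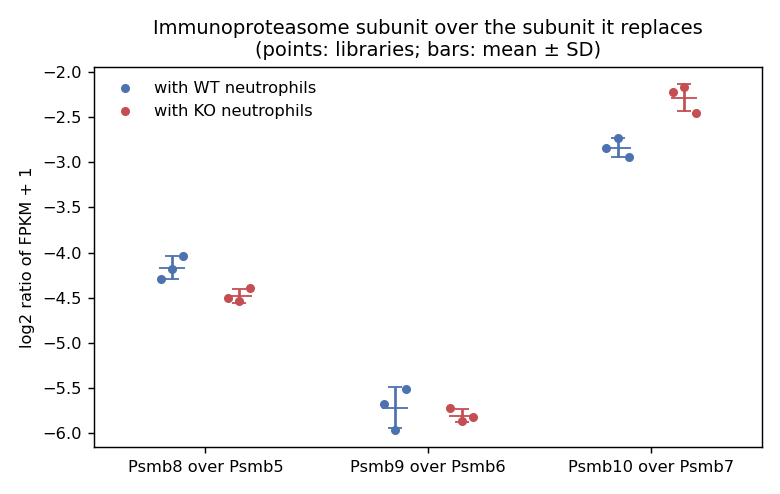
Log2 ratio of each immunoproteasome subunit to the constitutive subunit it replaces, computed on FPKM + 1. Points are libraries and bars are means ± SD of 3. With KO neutrophils Psmb8 over Psmb5 lies lower, Psmb10 over Psmb7 lies higher, and Psmb9 over Psmb6 overlaps.

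Among the immunoproteasome subunits themselves, the log2 ratio of Psmb10 to Psmb8 differed by 0.77 and that of Psmb10 to Psmb9 by 0.67, KO minus WT, each without overlap (exact permutation p = 0.1, adjusted 0.143, among the 10 pairs chosen after seeing the values). The ratio of Psmb9 to Psmb8 differed by 0.10 and overlapped (exact permutation p = 0.4). As a sum, the 3 subunits had 17.7 ± 0.529 FPKM in the WT arm and 18.4 ± 0.580 FPKM in the KO arm (SD, n = 3 each; exact permutation p = 0.3). Within this sum Psmb8 was lower and Psmb10 higher. Their share of all catalytic subunit FPKM was 4.68%, 4.96% and 4.97% with WT and 5.68%, 5.65% and 5.09% with KO neutrophils (exact permutation p = 0.1), while the constitutive sum was 346.6 ± 3.42 and 318.6 ± 11.1 FPKM (SD, n = 3 each; exact permutation p = 0.1).

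The remaining genes of the pathway were counted by hand-written lists. Of 17 other class I genes, 8 were at 0 in every library and 5 could be tested. Of these 5, 4 were lower (18.8% of all genes) and none higher (24.5%), with a median log2 change of -0.43. The least of these falls, of the pseudogene H2-K2 (-0.31), lost its call when any library but WT replicate 2 was left out (limma adjusted p 0.0510 to 0.0723), which left 3 lower. H2-T24, a non-classical gene of the same region as H2-T23, had 11.5, 12.2 and 12.1 FPKM in the WT arm against 4.41, 4.08 and 3.53 FPKM in the KO arm, a log2 change of -1.37. H2-Q4, a gene of the Q region, went from 13.2, 13.1 and 13.1 FPKM to 6.51, 5.47 and 5.49 FPKM, a log2 change of -1.05. Both fitted changes were larger than that of any member, but the interval of H2-Q4 (-1.21 to -0.89) overlaps with that of H2-T23. Windows shared with other transcripts were counted for the members only. How far reads of these other class I genes, also of those at 0, can be assigned was not tested. H2-M3, which presents N-formylated peptides, changed by -0.43, while H2-T22, close to H2-T23 on the chromosome, changed by -0.08 (95% interval -0.24 to 0.08) and did not pass the test.

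Of 6 class I-like genes outside the MHC core, 3 were tested and all 3 were higher with KO neutrophils (24.5% of all genes). Their median log2 change was 0.31. They were Hfe (0.73), a regulator of iron uptake, Mr1 (0.31), which presents vitamin B metabolites, and Fcgrt (0.21), the neonatal Fc receptor. Of the 3, only Hfe kept its call with each library left out. On the TPM scale, Hfe alone of them passed the test. Mr1 lost its call when any 1 of the 6 libraries was left out (limma adjusted p 0.0525 to 0.115), and Fcgrt with any but KO replicate 1 (0.0807 to 0.126).

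Of 11 class II genes, H2-Aa, H2-Ab1, H2-Eb1, H2-Eb2, H2-Ob and their activator Ciita were at 0 in all libraries. Cd74, the invariant chain, was lower, from 43.7, 57.4 and 58.0 FPKM to 27.3, 32.0 and 33.3 FPKM (log2 change -0.76). H2-DMb1 was higher by 0.21 on the log2 scale, and this call was lost on the TPM scale, after median centring and after quantile normalization. It was also lost without WT replicate 2, WT replicate 3, KO replicate 2 or KO replicate 3 (limma adjusted p 0.0890 to 0.133 in these left-out fits).

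Of 14 genes for peptide trimming and loading, 4 were lower (18.8% of all genes) and 2 higher (24.5%). Their median log2 change was 0.01, and -0.04 on the TPM scale. Of the lower ones 2 were left without WT replicate 1, WT replicate 3, KO replicate 1 or KO replicate 2. The chaperone gene Calr was higher by 0.32, and Tapbpl, encoding the tapasin-related editor TAPBPR, was lower (-0.33), as was the peptidase gene Nrd1 (-0.19). Among 9 genes of proteasome activators and assembly, Pomp, the assembly chaperone of new proteasomes, rose from 8.04, 8.17 and 8.72 FPKM to 13.7, 12.3 and 11.9 FPKM (log2 change 0.55). Psme2, a subunit of the interferon-inducible PA28 activator, was lower (-0.30) and the assembly chaperone gene Psmg3 higher (0.23). This list had 2 genes lower (18.8% of all genes) and 3 higher (24.5%), with a median of 0.07. Without WT replicate 1 or WT replicate 2 it had 0 lower and 2 higher, and Psme2 had a limma adjusted p of 0.0558 and 0.0551.

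Of the other 11 genes of the 20S core, none was lower (18.8% of all genes) and 4 were higher (24.5%). Their median log2 change was 0.06, with Psma1 (0.23), Psma5 (0.21) and Psma2 (0.19) as examples of higher genes. On the TPM scale 1 was lower and 3 were higher. Of 18 genes of the 19S cap, 4 were lower (18.8% of all genes) and 5 higher (24.5%), with a median of -0.02. On the TPM scale this list had 5 lower and 3 higher. Without WT replicate 1 or WT replicate 2 it had 3 lower and 3 higher, and without KO replicate 3 it had 4 lower and 3 higher. Psmd13 (0.24) and Psmd12 (0.19) were higher and Psmc2 (-0.21) lower.

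Among 16 regulators of class I transcription, 5 were lower and none higher (median log2 change -0.12), while 18.8% of all genes tested were lower. Nfkb1, which encodes the NF-kB subunit p50 and its precursor, went from 18.02, 19.4 and 18.7 FPKM to 7.61, 7.18 and 7.20 FPKM, a log2 change of -1.24. Irf9, a transcription factor of the type I interferon response, changed by -0.54. Nlrc5, the class I transactivator, had 8.31, 8.68 and 8.18 FPKM in the WT arm against 7.42, 7.48 and 7.56 FPKM in the KO arm, a log2 change of -0.15 (limma adjusted p = 0.0234). This call was lost when any library but WT replicate 3 was left out (limma adjusted p 0.0541 to 0.0680), and the list then had 3 genes lower. Irf1 did not pass the test, with 4.37, 3.65 and 4.38 FPKM and then 4.73, 4.90 and 4.78 FPKM (log2 change 0.18, 95% interval 0.01 to 0.35, limma adjusted p = 0.0786).

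Of 10 interferon, receptor and kinase genes, 7 were tested, 3 lower (18.8% of all genes) and none higher (24.5%). Their median log2 change was -0.09. Jak2, a kinase of the interferon gamma receptor, changed by -0.94, the type I receptor gene Ifnar2 by -0.40 and the kinase gene Jak1 by -0.12. Jak1 was no longer called when any library but KO replicate 1 was left out (limma adjusted p 0.0721 to 0.0888). The list then had 2 genes lower, and without WT replicate 1 also 1 higher. Ifng and Ifna4 were listed at 0 in every library, and Ifnb1 reached 0.0837 FPKM in 1 library. Of 7 co-stimulation and checkpoint genes, which act on T cells beside the MHC molecules, 6 were tested and 5 were lower (18.8% of all genes). Their median log2 change was -1.31. Cd80 changed by -1.39, Icosl by -1.31 and Cd274, which encodes PD-L1, by -1.31.

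**Figure D5:**
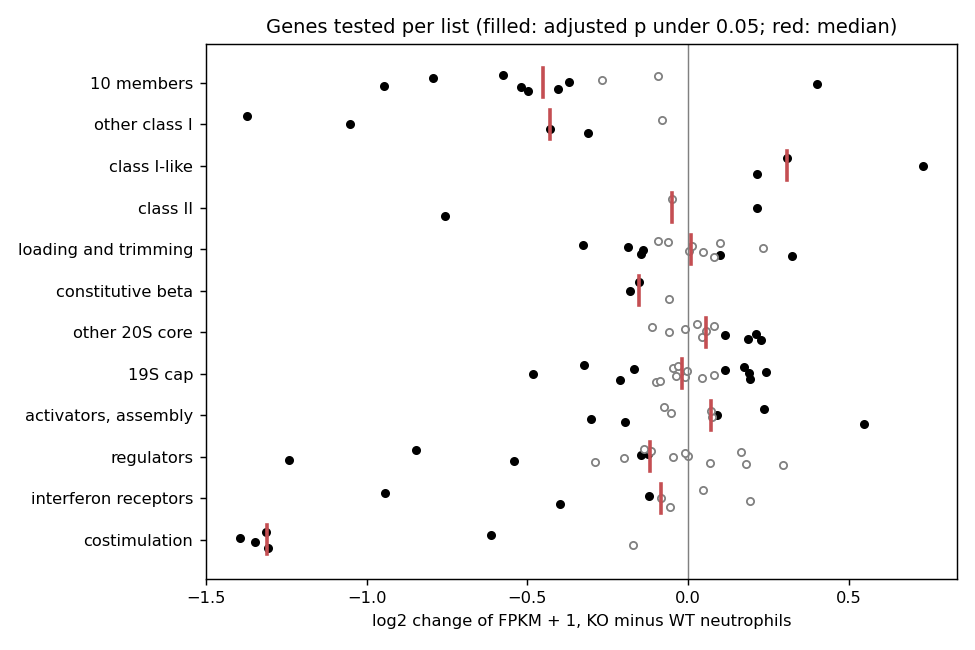
Change of log2(FPKM + 1), KO minus WT neutrophils, for each gene tested in the members and the other lists of the pathway. Filled points had a limma adjusted p under 0.05, open points did not, and red bars are medians. The members (-0.45), the other class I genes (-0.43) and the co-stimulation genes (-1.31) have the lowest medians.

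Libraries of an arm were alike, with Pearson's r of 0.988 to 0.989 across genes within an arm and 0.956 to 0.959 between arms (genes are not independent replicates). FPKM summed to 314085 to 315632 with WT and 323588 to 326868 with KO neutrophils. Cd177 was near the limit of detection in these sorted microglia (0.477, 0.113 and 0.151 FPKM in the WT arm against 0.109, 0.0217 and 0.0845 FPKM in the KO arm), so that it gave no firm check of the neutrophil genotype. Of 12 microglia and macrophage markers, 8 were tested, with 2 lower and 5 higher, and they summed to 781 to 820 FPKM in the WT arm and 919 to 957 FPKM in the KO arm. Cd68 was the highest. The microglia marker Sall1 was at 0, and P2ry12 and Aif1 stayed at or under 0.282 FPKM, so that these defining markers were absent or close to it, while Cd68 and Tyrobp, which macrophages share, were abundant. In such bulk samples, fewer cells of a type and less RNA per cell cannot be told apart.

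Markers of other cells that present antigen or could have been carried over were low. Of 12 neutrophil markers, 6 were at 0 in all libraries, among them Ly6g and S100a9, and none passed the filter. Their sum was 1.82 to 2.02 FPKM in the WT arm and 0.769 to 1.19 FPKM in the KO arm, lower with KO as most members were, and Csf3r was the highest with at most 0.744 FPKM. The part of this sum, and of that of the microglia markers, in the members' values was not tested. Of 8 dendritic cell markers 2 were at 0 and Batf3 alone was tested, and their sums of 2.29 to 3.57 and 2.81 to 3.64 FPKM overlapped. Of 8 lymphocyte markers 6 were at 0, and the sum stayed at or under 0.0386 FPKM, with Cd4 the highest. Of 10 astrocyte and oligodendrocyte markers 6 were at 0, with sums of 0.298 to 0.379 and 0.280 to 0.352 FPKM and Mbp the highest. Of 8 endothelial and fibroblast markers 2 were at 0, with sums of 0.270 to 0.354 and 0.103 to 0.161 FPKM and Pecam1 the highest.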

How the data were processed

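Microglia sorted after co-culture gave 6 RNA-seq libraries. The authors deposited FPKM values for 55335 mouse genes, 1 column per library, and no value column was left out. The submitters' processing notes name fastp 0.17.1, HISAT2 2.1.0, DESeq2 1.18.1 and R 3.4.3; the quantifier, build and annotation are not given in the sources used here. GENCODE M21 (GRCm38) named 55154 identifiers, and 181 had no symbol. The authors tested counts with DESeq2. FPKM values are not counts, so limma 3.58.1 (R 4.3.3; lmFit, eBayes with trend) was run on log2(FPKM + 1) without covariates, for the 11395 genes whose mean reached 1 FPKM, with Benjamini-Hochberg adjustment over these genes and a call at an adjusted p under 0.05. Single values and within-library ratios were tested with an exact two-sided permutation test, whose smallest p here is 0.1. The script was tested on simulated data.

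Depth is not given with FPKM. The commonest step between low values would put it at 15.7 to 19.4, in units of 1e+06 fragments, but 32.2% to 34.1% of low values came out whole (within 0.05), so reads were not recovered and no count test was run. This estimate covers counting error only.

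Lists, as well as members, were chosen with earlier results of these data known. Members, Psmb5, Psmb6, Psmb7, Nlrc5, Irf1 and Cd177 were always named, then up to 3 called genes of smallest p per list, and the highest marker of each cell type. 1 gene that this rule names is not reported here. H2-T22, Ifng, Ifna4, Ifnb1 and the markers and class II genes at or near 0 were named after their values were seen, as were H2-K2 and the overlapping genes. The ratios between members and 1 motif were added after seeing the data. Alternatives were a pseudocount of 0.1, no filter, a mean minimum of 5 FPKM, the TPM scale (each library brought to a sum of 1e+06), median centring, quantile normalization, no variance trend, the replicate number as a block, and each library left out.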

Additional observations from a re-analysis of the deposited data

How the results depend on the processing

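With no filter on low values, 0 members were called higher, since Psmb10 (log2 change 0.40) then had a limma adjusted p of 0.0512. With 1 library left out, members called higher ranged from 0 to 1, and the log2 change ranged from 0.34 to 0.49 for Psmb10 and from -0.37 to -0.17 for Psmb9. The log2 ratio of Psmb9 to Psmb6 ranged from -0.21 to 0.0137 and among these fits was above 0 only without WT replicate 3; with a pseudocount of 0.1 it was -0.28. Psmb9 changed by -0.46 with that pseudocount and by -0.43 on the TPM scale. The cause was not tested. The 7 members called lower kept that call on the TPM scale, after median centring and after quantile normalization. Of all genes, 4930 were called, 4081 to 4229 with 1 library left out and 3763 among genes of mean FPKM 5 or more. Deviations of same-numbered libraries from their arm means had correlations of -0.075, -0.052 and -0.005. Differently numbered libraries were not compared, so that these values cannot decide whether same-numbered libraries were prepared together. With the replicate block 4212 genes were called, 7 members lower and 1 higher. Under the block H2-K2, H2-DMb1, Nlrc5 and Jak1 were not called, 3 regulators and 3 other class I genes were lower, and 1 activator or assembly gene was lower and 2 were higher. Fitted by limma with the block, the ratios Psmb8 to Psmb5, Psmb9 to Psmb6 and Psmb10 to Psmb7 had adjusted p of 0.0102, 0.296 and 0.00105. Unlike the permutation test, the block assumes that same-numbered libraries belong together, which is not known. By the estimated depth, Psmb9 rests on the fewest fragments, with Tap2 and Tap1 next in their lowest libraries (95 and 99 if the longest transcript was the expressed one). A planned count test on recovered reads was not run.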
